A study of Danio rerio with 7 samples.

Results

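The embryonic macrophages described here were 137 of 2854 cells (4.80%) in a sort of the first arch region of the zebrafish embryo. Members were chosen by their own counts, so these counts describe the class. A cell was called a macrophage when it had at least 1 UMI (a unique molecular identifier, 1 counted transcript) of at least 3 of the 6 markers mfap4, mpeg1.1, lygl1, lgals2a, ctss2.2 and tnfb. It also needed at least 1 UMI of spi1b, lcp1 or coro1a, genes shared by many white blood cells, and 0 UMIs of dlx2a (neural crest mesenchyme), epcam (epithelium) and cdh5 (endothelium). The comparison class held 188 spi1b-positive cells with fewer than 2 of the markers, called marker-low spi1b cells below. It had no condition on dlx2a, epcam or cdh5.

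All embryos carried Tg(sox10:nEOS)w18, a photoconvertible nuclear protein driven by the neural crest promoter sox10, in the AB strain. Cells of the first arch stream were photoconverted, and red cells were sorted and profiled by droplet single-cell RNA sequencing. The timeline had 1 library each at 12, 14, 18, 20, 24 and 30 hours post-fertilization (hpf), made with chemistry v2, and a second 18 hpf library was made with chemistry v3. The labels call every sample an NC cell sample, so the macrophages were cells of another type within that sort, and how many of them carried the red signal cannot be read from the counts. Each stage held 1 library of pooled cells apart from the pair at 18 hpf, which differed in chemistry and depth, so p-values measure the spread between these libraries only.

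Macrophages are phagocytes of the myeloid lineage. In the zebrafish embryo the earliest ones arise from anterior lateral mesoderm, spread over the yolk and enter the head, where they engulf dying cells and microbes. The transcription factor PU.1, encoded by spi1b, starts the myeloid programme, irf8 favours macrophages over neutrophils, and mature cells load their lysosomes with cathepsins and carry an oxidase that makes superoxide. Mfap4 and Mpeg1 are the proteins most used to mark macrophages in this species, and Lcp1 and Coro1a organise actin in all leukocytes.

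No macrophage was found at 12 hpf or at 14 hpf. At 12 hpf this was 0 of 238 cells, which by a limit of 3 counts allows a share of up to 1.26% (exact upper limit 1.54%), and at 14 hpf 0 of 354 cells, up to 0.847% (1.04%). At 18 hpf 15 of 248 cells were macrophages, or 6.05% (95% exact Clopper-Pearson interval 3.42 to 9.78). In the second 18 hpf library there were 90 of 979, or 9.19% (7.46 to 11.2). The 20 hpf library held 22 of 516, or 4.26% (2.69 to 6.38), the 24 hpf library 4 of 388, or 1.03% (0.282 to 2.62), and the 30 hpf library 6 of 131, or 4.58% (1.70 to 9.70). Cells with spi1b were present before macrophages were, as 65 cells of the 14 hpf library and 0 of the 12 hpf library were marker-low spi1b cells. The 18 and second 18 hpf libraries held 37 and 68 of them, and the 20, 24 and 30 hpf libraries 15, 1 and 2. The interval at 24 hpf lay below those of both 18 hpf libraries and of 20 hpf, that of the second 18 hpf library lay above that of 20 hpf, and those of 18, 20 and 30 hpf overlapped. Most of these separations depended on the rule. With at least 4 markers the intervals of 18 hpf (1.40 to 6.26) and 24 hpf (0.282 to 2.62) overlapped. So did those of the second 18 hpf library (5.80 to 9.17) and 20 hpf (2.38 to 5.92), and those of 20 and 24 hpf. With cells thinned to 5000 UMIs 18 and 24 hpf overlapped, and the second 18 hpf library and 20 hpf, but 20 hpf (3.48 to 7.52) and 24 hpf (0.570 to 3.34) did not. The interval at 24 hpf stayed below that of the second 18 hpf library in both settings (thinned, 5.62 to 8.95). These are shares of sorted cells, which the photoconverted region and the gate also set, and with 1 library a stage they were not tested. Intervals cover counting error only.

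**Figure D1:**
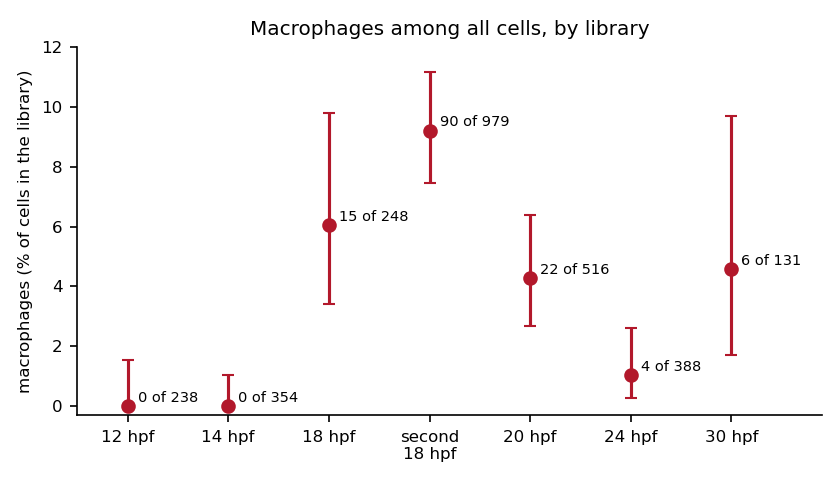
Macrophages as a percentage of all cells in each library, with 95% exact Clopper-Pearson intervals that cover counting error only and the numbers of cells beside each point. Both libraries before 18 hpf hold none, and the second 18 hpf library holds the highest share, 9.19%.

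Every macrophage passed the cell filter, the median macrophage having 13040 UMIs in the 18 hpf library and 26737 in the deeper second one. No cell fell under 1505 genes or above 4.81% mitochondrial UMIs. Libraries shared 1 cell barcode, between 12 and 14 hpf, where there were no macrophages. Scrublet, a doublet caller, marked 47 of 131 cells at 30 hpf, the 6 macrophages among them, and 0 to 4 cells in each other library, none of them macrophages. Of the reference cells of 30 hpf, defined below, 31 of 106 were marked. Whether the marked cells were doublets, of any cell types, was not tested. Values without Scrublet's calls are those without the 6 macrophages of 30 hpf. Those 6 cells had 0 UMIs of sox10, and 18 of 20 neural crest and arch mesenchyme genes were at 0 in them (summed level 39.1 CPM, counts per 1000000 UMIs of the class, against 2559 in the reference cells of that library). Reference cells here are those with a UMI of sox10 or dlx2a and none of spi1b, lcp1 and coro1a.

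All 15, 90, 22, 4 and 6 macrophages of the 18, second 18, 20, 24 and 30 hpf libraries had spi1b, although lcp1 or coro1a would have sufficed. The rule used spi1b to admit cells, and every marker-low cell had it by definition. It therefore does not bear on the name of the class. Other listed markers do. Of the neutrophil granule genes, mpx (myeloperoxidase) was at 0 UMIs in macrophages of every library, and lyz (lysozyme) was detected in 3 of 90 cells of the second 18 hpf library and in 2 of 6 at 30 hpf (11.2 and 19.6 CPM). The whole list of 14 neutrophil and mast cell genes was nonetheless above the reference cells in each library. In macrophages it summed to 46.2, 491, 338, 610 and 411 CPM at 18, second 18, 20, 24 and 30 hpf. Reference cells had 21.4, 48.7, 13.2, 15.7 and 23.6 in that order. The receptor for the macrophage growth factor, a defining protein of the lineage, is encoded by the gene pair csf1ra and csf1rb, and both were sparse. Csf1ra had 16 UMIs in 12 of 90 cells in the second 18 hpf library, 2 at 20 hpf, 1 at 24 hpf and 0 at 18 and 30 hpf. Csf1rb had 69 UMIs in 32 of 90 cells of the second 18 hpf library (28.7 CPM), 0 at 18 hpf, and 1 or 2 UMIs in each of the 3 later libraries. Listed genes of other tissues were not all 0, and they did not all lie below the reference cells. The erythroid list of 14 genes was the highest of them, at 1375, 926 and 2637 CPM in macrophages of 18, second 18 and 20 hpf against 66.9, 62.3 and 15.2 in reference cells, and at 751 and 489 at 24 and 30 hpf. What part it had in the results was not tested. The endothelial list of 14 genes summed to between 9.78 and 70.9 CPM over the 5 libraries, above the reference cells at 24 hpf (70.9 against 27.7) and below them in the other 4, and the epithelial list of 15 genes to between 284 and 401, most of it krt8, below the reference cells in each. Reference cells carried epithelial genes themselves. In the second 18 hpf library 29.3% of them had epcam and their epithelial list summed to 4735 CPM, so a level below theirs says little.

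The 6 markers chose these cells, so their levels describe the class and are not tested. Mfap4 differed most between libraries. Its level was 46.2 CPM at 18 hpf, 836 in the second 18 hpf library, then 2491, 21099 and 3121 at 20, 24 and 30 hpf. It was detected in 2 of 15, 34 of 90, 17 of 22, 4 of 4 and 6 of 6 cells in that order. The 4 cells at 24 hpf had 169, 219, 422 and 678 mfap4 UMIs, and the 6 cells at 30 hpf had 12, 27, 27, 62, 81 and 110, so the cells of those ages did not overlap. Reference cells, which should lack the gene, had it in at most 1.03% of cells at a level of at most 0.53 CPM, so most of the 18 hpf macrophages had no more mfap4 than that background. With each cell thinned to 5000 UMIs the share with mfap4 was 6.67% at 18 hpf, 31.1% in the second 18 hpf library, 63.6% at 20 hpf and 100% at 24 and 30 hpf.

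The lysozyme-like gene lygl1 followed a similar order, at 66.7 CPM at 18 hpf, 469 in the second 18 hpf library, then 926, 3162 and 2240 at 20, 24 and 30 hpf. The galectin gene lgals2a was at 262, 282, 1176, 2850 and 3913 in the same order. Both were lowest in the 2 libraries of 18 hpf and higher at each later stage than at either of them. Mpeg1.1, a pore-forming protein of phagosomes, varied less, from 103 at 18 hpf and 182 in the second 18 hpf library to 332, 269 and 284 at 20, 24 and 30 hpf. The cathepsin S gene ctss2.2 was at 241, 574, 909, 525 and 489, highest at 20 hpf, and the tumour necrosis factor gene tnfb at 139, 194, 106, 525 and 695, lowest at 20 hpf. Reads of mfap4, lygl1 and ctss2.2 may be shared with near copies (MFAP4 (1 of many), lygl2, ctss2.1), so each is uncertain as a single gene.

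Among the leukocyte genes the order ran both ways. Spi1b, the early regulator, was at 790 and 2315 CPM in the 18 and second 18 hpf libraries, then 974, 581 and 342 at 20, 24 and 30 hpf. The actin organiser lcp1 was at 333, 748, 1312, 1602 and 1800, and coro1a at 231, 485, 1153, 1418 and 1976, in the same library order. Spi1b was thus lowest, and both actin genes highest, in the 30 hpf cells. Lgals2a, the marker most often seen in reference cells, had a UMI in 4.14% of them in the second 18 hpf library (median 22826.5 UMIs a cell) and in 85.6% of its macrophages (median 26737).

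**Figure D2:**
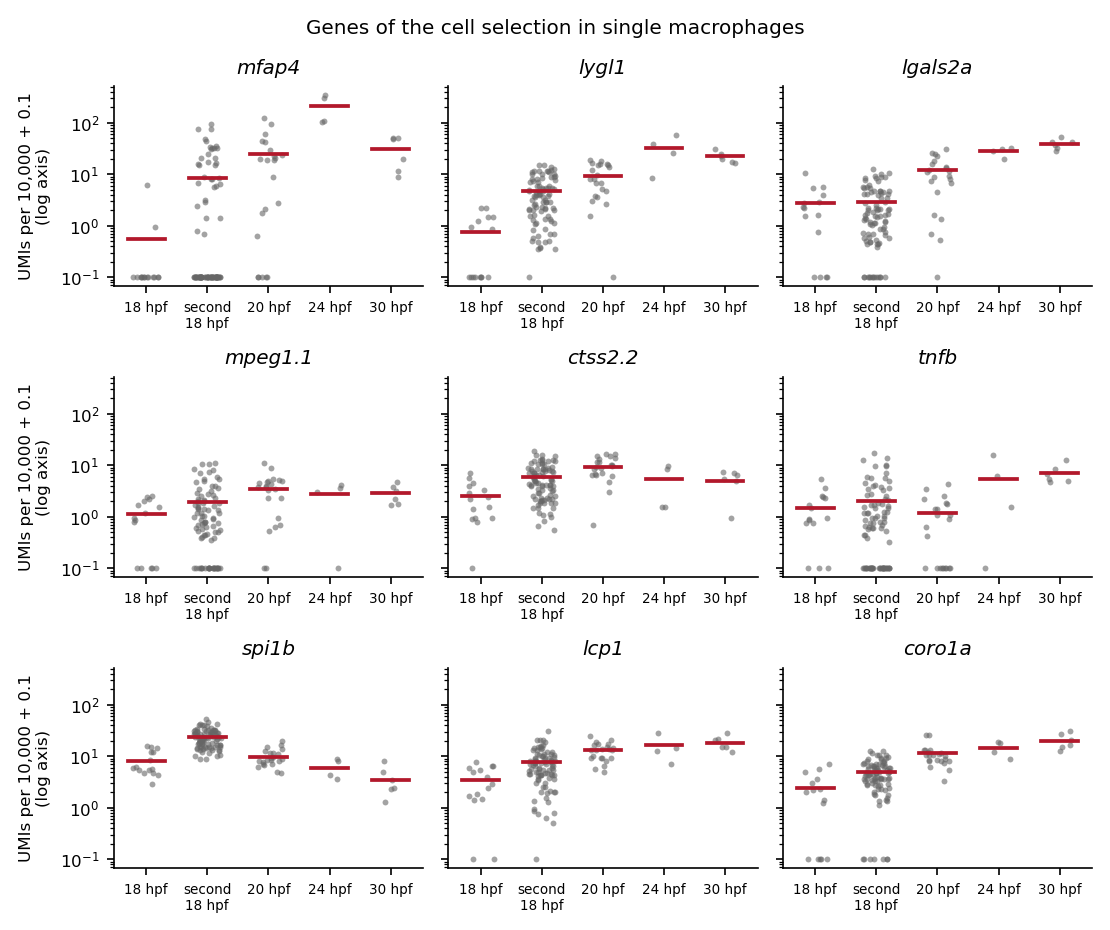
Level of the 6 markers and the 3 leukocyte genes in single macrophages, scaled to the total UMIs of the cell, on a log axis with a small constant added, by library. Points are cells and red bars the level of all macrophages of the library summed, with mfap4 at 46.2 CPM at 18 hpf and 21099 at 24 hpf.

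The class graded into its surroundings at the threshold mainly in the 2 libraries of 18 hpf. There were 27 macrophages with exactly 3 markers, with a median of 9 marker UMIs (range 3 to 39), and 21 cells just outside with exactly 2 markers, with a median of 5 (range 2 to 49). At 18 hpf these were 7 and 8 cells (medians 6 and 4), and in the second 18 hpf library 18 and 12 (medians 12.5 and 5). The 20 hpf library held 2 and 1, and the 24 and 30 hpf libraries 0 of either. All 6 markers were found in 41 macrophages, among them all 6 cells of 30 hpf, 3 of 4 at 24 hpf, 10 of 22 at 20 hpf and 22 of 90 in the second 18 hpf library, but in 0 of 15 at 18 hpf.

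The exclusion genes removed 32 of 169 cells (18.9%) that otherwise passed, 30 of them for epcam. At 20 hpf 14 of 36 were removed (38.9%), each with 1 to 10 epcam UMIs, and in the second 18 hpf library 14 of 104 (13.5%). The 14 cells at 20 hpf had mfap4 at 2707 CPM, against 2491 in the macrophages kept, ctss2.2 at 1179 against 909 and spi1b at 812 against 974. Their summed epithelial list was 522 CPM, against 338 in the kept macrophages and 1723 in the reference cells, and neural crest and arch mesenchyme genes summed to 14.1 against 23.7. Mpeg1.1 was at 649 against 332 and lgals2a at 2128 against 1176. The removed cells of 20 hpf thus had no less of these 4 markers than those kept, with epcam itself at 145 CPM. In the second 18 hpf library the removed cells were deeper (median 36347.5 UMIs against 26737), had mfap4 at 1419 against 836, and an epithelial sum of 1478 against 351, of which 1 cell with 50 epcam UMIs and 34 UMIs of krt4, a keratin of the outer skin layer, carried a part. Doublets and free RNA as sources of epcam in these cells were not tested.

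Against the marker-low spi1b cells, macrophages carried more of the receptors, oxidase subunits and lysosomal enzymes of phagocytes and less of the genes of dividing, progenitor and neural crest cells. The UMIs of each class were summed per library and compared in 18, second 18 and 20 hpf, the libraries with at least 5 cells of both classes, by edgeR's quasi-likelihood test with the library as a block. Of 3695 genes tested, 479 differed at an adjusted p under 0.05 (13%), 294 higher (7.96%) and 185 lower (5.01%) in macrophages. In 456 of the 479 the difference ran the same way in all 3 libraries. The calls came from these same libraries and favour genes whose libraries agree, so this count is no replication. The markers chose both classes, so genes that follow the markers from cell to cell had to differ, and the calls describe the contrast without being independent evidence for it. Only macrophages had to lack dlx2a, epcam and cdh5, so lower levels of neural crest, epithelial and endothelial genes in them were partly built in. The marker-low class was also mixed. Its neural crest and arch mesenchyme genes summed to between 577 and 810 CPM in these libraries (23.7 to 87.2 in macrophages), its endothelial list to between 45.8 and 863 (25.6 to 44.4), and lyz reached 207 at 20 hpf and 717 in the second 18 hpf library. What part these cells had in the calls was tested only by leaving some of them out. Without marker-low cells that had lyz or mpx 442 of 3620 genes tested were called. With marker-low cells that had dlx2a, epcam or cdh5 removed 258 of 3369 were called, 193 higher and 65 lower in macrophages. When marker-low cells had to have lcp1 or coro1a 305 of 3075 were called. The count was 999 of 6300 without the 20 hpf library and 78 of 3695 with no library block. The number of genes tested differed between settings, so the counts alone do not compare them.

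The largest fitted difference was in havcr1, a receptor for phosphatidylserine on dying cells. Macrophages had 30.8 CPM at 18 hpf, 119 in the second 18 hpf library and 416 at 20 hpf, and marker-low cells had 0 UMIs in all 3. With the 3 libraries pooled, and against the 3 UMIs that a count of 0 allows, it was at least 132-fold higher (edgeR adjusted p = 9.75e-08). Single libraries need not reach this pooled bound. Outside the test its level went on to 1333 at 24 hpf and 978 at 30 hpf. The lysosomal ribonuclease gene rnaset2l was at 221, 103 and 353 CPM in macrophages of 18, second 18 and 20 hpf and at 11.14, 0 and 0 in marker-low cells (log2 difference 6.30 ± 0.50 SE, adjusted p = 3.56e-07). The levels summed per library did not overlap between the classes in either gene, which is no statement about single cells.

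The 10 other genes with the largest rises, si:ch211-1o7.3 and zgc:64051 among them, had fitted log2 differences from 4.46 to 7.06. They included slc43a2b and slc3a2a, which encode parts of amino acid transporters, and the leukocyte membrane gene ms4a17a.10. Irf7, a regulator of interferon genes, was at 61.6 and 61.1 CPM in macrophages of both 18 hpf libraries and 38.8 at 20 hpf, against 0 to 3.05 in marker-low cells (log2 5.47 ± 0.56). The interleukin-10 receptor gene il10ra was at 61.6, 50.7 and 62.5 against 0, 2.33 and 0 (log2 5.07 ± 0.55). The adaptor gene fybb, the RNA-binding protein gene rbm47 (71.8, 75.6 and 71.1) and the channel gene calhm5.1 completed the group. Il10ra and rbm47 were nearly level across the 3 libraries, where havcr1 and ms4a17a.10 were highest at 20 hpf.

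Of the 12 genes with the largest falls, several are neural crest or Notch genes. The Notch target her15.2 had 0 UMIs in macrophages of all 3 libraries and 212, 55.4 and 162 CPM in marker-low cells of 18, second 18 and 20 hpf. With these libraries pooled it was at least 99.7-fold lower in macrophages, a bound that single libraries need not reach. Its near copy her15.1, with which reads may be shared, and her6 fell with it (her6 0, 7.89 and 12.9 against 379, 448 and 256). Twist1a, a factor of neural crest mesenchyme, was at 5.13, 0.831 and 4.31 against 125, 237 and 198 (log2 difference -6.82 ± 0.46 SE), but in only 7 of 37, 8 of 68 and 5 of 15 marker-low cells. The endothelin receptor gene ednrab, inka1a, pmp22a, the proto-oncogene mycn, foxp4, angptl4, the actin bundler gene fscn1a and si:ch211-286o17.1 had log2 differences from -6.28 to -5.08. Sox10, the promoter of the reporter, was at 30.8, 50.7 and 4.31 in macrophages against 221, 397 and 70.16 in marker-low cells and 786, 2043.5 and 198 in reference cells. It was detected in 4 of 15, 40 of 90 and 2 of 22 macrophages. The fall of sox10 (log2 -2.99 ± 0.25) was lost against marker-low cells with lcp1 or coro1a, where it was 0.72 with an adjusted p of 0.340.

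**Figure D3:**
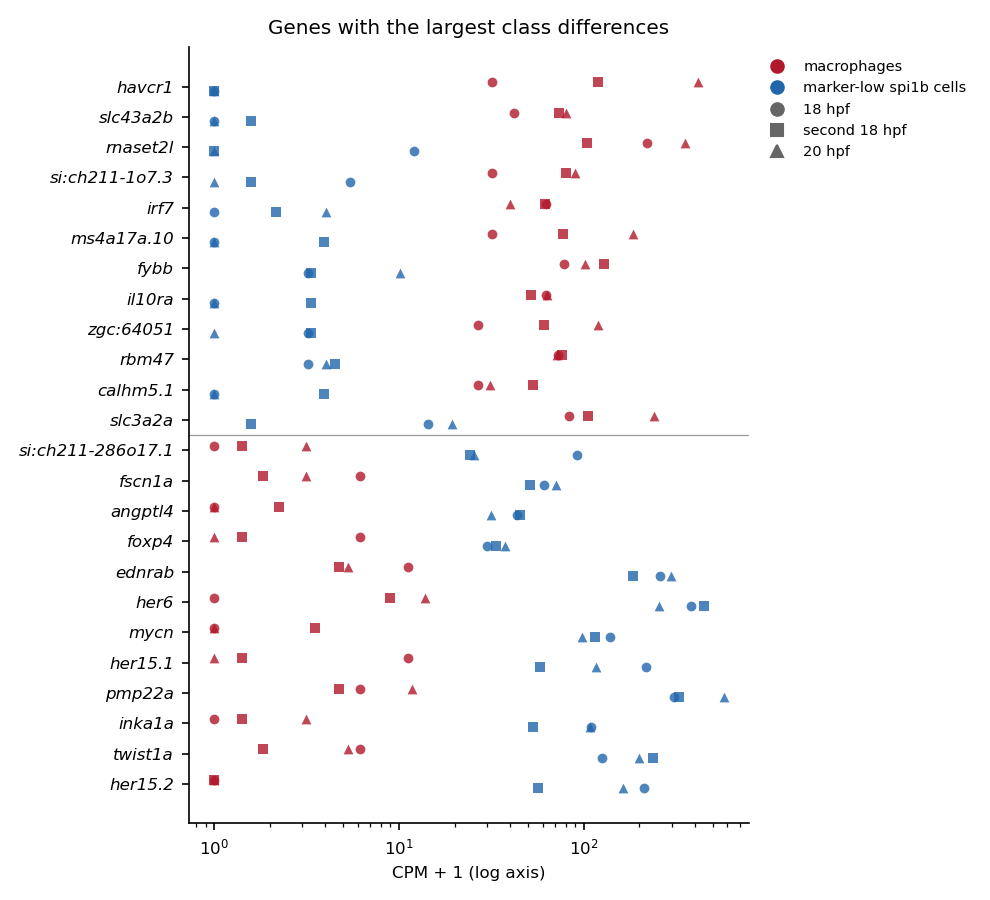
CPM plus 1, on a log axis, of the 24 genes with the largest differences in macrophages (red) and marker-low spi1b cells (blue) of 3 libraries, shown by symbol. The 12 genes above the line were higher and the 12 below it lower in macrophages in all 3 libraries, and her15.2 was at 0 in the macrophages of each.

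Receptors and other genes of macrophage identity came first among the lists. Of 7 tested, 5 rose and 0 fell (median log2 2.67, against -0.02 over all genes tested). Beside havcr1, il10ra and ms4a17a.10 these were the chemokine receptor gene cxcr3.2 and the lipid exporter gene abca1b. Cxcr3.2 was at 108, 266 and 584 CPM in macrophages of 18, second 18 and 20 hpf and at 24.5, 27.4 and 149 in marker-low cells, higher within each library (log2 2.67 ± 0.25, adjusted p = 1.86e-06).

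Myeloid transcription factors were split. Of 8 tested, 6 were higher and 1 lower (median log2 2.19). Irf8, which directs myeloid cells to the macrophage fate, was at 221, 481 and 310 CPM against 109, 80.5 and 42.7 (log2 2.27 ± 0.28, adjusted p = 2.95e-05). Spi1a, irf5 and cebpb also rose, cebpb by only 0.59. Ikzf1, a factor of blood progenitors and lymphoid cells, was lower (log2 -0.72 ± 0.21, adjusted p = 0.0313), and cebpa was at 369, 626 and 310 against 365, 793 and 638 and did not pass (adjusted p = 0.272). The factor gene tfec, related to the pigment factor mitfa, had too few UMIs for this class test. It was found in 79 of 90 macrophages of the second 18 hpf library (152 CPM), in 6 of 15 at 18 hpf (35.9), in 1 of 22 at 20 hpf (8.62) and in 0 of the 10 later cells. In the edgeR test of the age trend, described below, tfec did not pass (slope -1.69 ± 0.40 SE per hour, adjusted p = 0.0869).

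The phagocyte oxidase and redox list had 9 genes tested, of which 7 rose and 0 fell (median log2 1.88). Cyba and cybb encode the membrane pair of the superoxide-making enzyme. Cyba was at 241, 447 and 429 CPM in macrophages and 24.5, 48.4 and 88.5 in marker-low cells (log2 3.02 ± 0.23, adjusted p = 1.83e-07), and cybb at 179.5, 253 and 289 against 24.5, 19.8 and 73.2 (log2 3.03 ± 0.28). The cytosolic subunit genes were unequal. Ncf4 rose by 1.94 on the log2 scale, whereas ncf1 was at 256, 666 and 698 against 328, 929 and 851 and did not pass (log2 -0.27 ± 0.16, adjusted p = 0.374). The peroxidase gene gpx1a (log2 2.55 ± 0.19), txn and prdx1 also rose, with the ferritin gene fth1a at a log2 of 0.09.

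Lysosome and protease genes rose in 10 of 17 tested, with 0 lower (median log2 1.03). The gene psap, which makes the saposins that help break down lipids, was at 534, 506 and 1256 CPM against 163, 157 and 342 (log2 1.87 ± 0.17, adjusted p = 1.28e-06). The cathepsin B gene ctsba was at 56.4, 119 and 435 against 33.4, 25.7 and 58.0 (log2 2.30 ± 0.30). The ceramidase gene asah1b rose by 2.38, the proton pump genes atp6v1e1b and atp6v0d1 by 1.96 and 1.13, and grna, lgmn, hexb, npc2 and cd63 by 0.66 to 1.91. Among those that did not pass were ctsd, ctsh, ctsk and ctsla, and ctsla was at 41.0, 105 and 162 against 75.8, 143 and 79.3, so that at both 18 hpf libraries it was lower in macrophages.

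Leukocyte signalling genes rose in 7 of 8 tested (median log2 1.40) and leukocyte actin and motility genes in 8 of 12 (median 0.77), with 0 lower in either list. The phosphatase gene ptpn6 (log2 2.07 ± 0.22) and fcer1gl, an Fc receptor subunit, at 292, 192 and 1062 CPM against 93.6, 67.1 and 336, rose with the kinase genes syk, lyn and hck and with pik3r5 and arhgdig. The actin-binding gene cotl1 was at 1062, 1456 and 2551 against 185, 364 and 842 (log2 2.12 ± 0.16, adjusted p = 1.94e-07), and tmsb4x, which encodes a small protein that binds free actin, at 12507, 9936 and 18834 against 4532, 4567 and 8578 (log2 1.35 ± 0.10). Wasa, arpc1b, rac2, pfn1, actb1 and actb2 rose by 0.59 to 2.11, the last pair being near copies. Of the engulfment list only rab7a (log2 1.25 ± 0.20), rab5c (0.67) and elmo1 could be tested, and elmo1 did not pass (adjusted p = 0.721). None of 5 cytokine and receptor genes passed by edgeR. In the same fit 13% of all 3695 genes passed, so this count says little about the list. Cxcr4b was at 123, 415 and 299 against 78.0, 371 and 369, and il6r at 313, 664 and 239 against 261, 584 and 619.

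Progenitor and cell cycle genes went the other way. Of 5 blood progenitor genes, 4 were lower and 0 higher. Macrophages had to lack cdh5, which had a UMI in 5 of 37, 26 of 68 and 0 of 15 marker-low cells of 18, second 18 and 20 hpf. Lower levels of any of these genes that go with cdh5 were therefore partly built in. The gene lmo2, which encodes a partner of the blood factor Tal1, was at 20.5, 42.4 and 8.62 CPM in macrophages and 123, 455 and 61.0 in marker-low cells (log2 -3.19 ± 0.28, adjusted p = 9.13e-07), and fli1a, drl and tal1 fell by 2.72, 1.35 and 0.89 on the log2 scale. Myb was at 169, 232 and 131 against 183, 315 and 220 and did not pass. In the proliferation list 12 of 21 genes tested were lower and 0 higher (median log2 -0.95). Pcna, the replication clamp, was at 303, 259 and 215 against 423, 392 and 1010 (log2 -0.99 ± 0.25, adjusted p = 0.0127), and ccnb1 (log2 -1.65), ccna2, top2a, mki67 and cdk1 were among the rest. Summed over 26 genes the list was at 1236, 1403 and 1161 CPM in macrophages of 18, second 18 and 20 hpf and at 1493, 2499 and 3337 in marker-low cells, and it stayed at 1262 and 1008 in the macrophages of 24 and 30 hpf. In the reference cells of the second 18 hpf and 20 hpf libraries it was at 4085 and 4880.

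The remaining lists held few genes called or marked the other cells of the marker-low class. Over all genes tested 13% were called, so the few calls in the lipid, neutrophil, globin and immediate early lists say little about those lists. All 3 neural crest genes tested (sox10, tfap2a, twist1a) and the keratin gene krt18a.1 were lower in macrophages, and fabp3 was the 1 lipid gene of 3 that changed (log2 -2.85 ± 0.28). Of 5 neutrophil and mast cell genes the protease gene adam8a was lower (log2 -2.32 ± 0.27) and mmp13a higher (1.07 ± 0.28), where reads may be shared with mmp13a.1. Of 6 globin genes hbbe1.2 was lower (-0.79), and the erythroid list summed to between 926 and 2637 in macrophages and between 1356 and 2599 in marker-low cells of the same libraries. In the immediate early and heat shock list junba was higher (log2 0.81), fosab and jun (-0.88) were lower, and 14 of 17 did not pass.

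**Figure D4:**
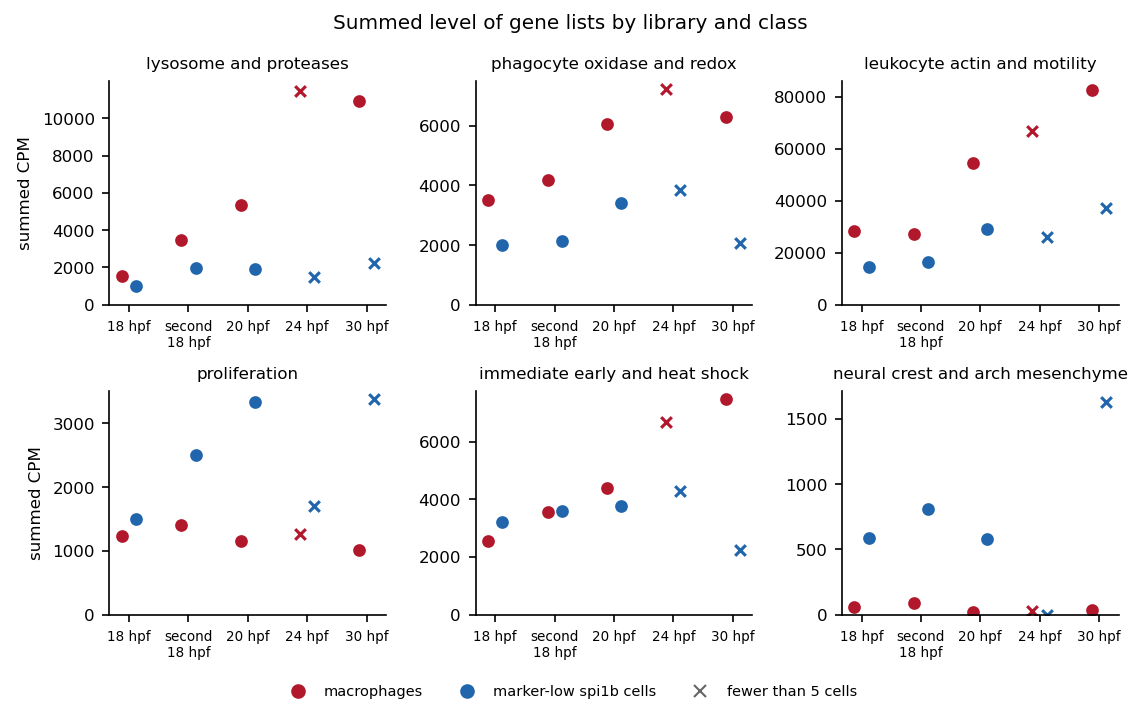
Summed CPM of 6 gene lists in macrophages (red) and marker-low spi1b cells (blue) by library, with crosses where a class had fewer than 5 cells. Proliferation genes sum to between 1008 and 1403 in macrophages of every library, and the immediate early and heat shock list to 2544 at 18 hpf and 7493 at 30 hpf.

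With age a small set of genes passed the test in macrophages, more of them rising than falling. The trend was fitted by edgeR over 4 libraries (18, second 18, 20 and 30 hpf), as log2 change per hour, and the 24 hpf library with its 4 cells stayed out of the fit. Of 3021 genes, 46 passed an adjusted p under 0.05 (1.52%), 37 rising (1.22%) and 9 falling (0.298%). Which genes were called, and how many, depended on the libraries in the fit. Without the second 18 hpf library 0 of 1689 genes tested passed. Of these 1689, 181 had an unadjusted p under 0.05, against 551 of the 3021 tested with all 4 libraries. Only 30 of the 46 called genes were tested without that library, and 0 of the 30 turned in direction. Without the 30 hpf library, whose 6 macrophages Scrublet marked, 102 of 4607 genes passed, among them 10 of the 46. Without the 20 hpf library 270 of 2727 passed, and DESeq2 called 89 of 3021. The second 18 hpf library differs from the others in chemistry and depth, which cannot be told apart, and the timeline libraries alone, which share a chemistry, are the fit that called 0 genes. The summed immediate early and heat shock list also differed between libraries (2544 at 18 hpf, 3570 in the second 18 hpf library, then 4404, 6664 and 7493 at 20, 24 and 30 hpf), whose part in the trend was not tested.

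The largest fitted slope was that of MFAP4 (1 of many), a near copy of mfap4 with which reads may be shared. Mfap4 helped choose the cells, so this call is not independent of the rule. The near copy had 0 UMIs at 18 hpf, so its slope is also no measure of size. It was at 0 CPM at 18 hpf, 22.4 in the second 18 hpf library, then 414, 3885 and 9313 at 20, 24 and 30 hpf (slope 0.65 ± 0.12 SE per hour, adjusted p = 0.0477). At 30 hpf it stood above mfap4 (3121) and at 24 hpf below it (21099). Hmox1a, the enzyme that breaks down haem, was at 0, 76.0, 81.9, 227 and 2103 in the same order (slope 0.48 ± 0.08, adjusted p = 0.0319), so most of its change lay between 24 and 30 hpf.

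Several of the rising genes belong to glucose metabolism. Gapdhs and gapdh encode 2 forms of a central glycolytic enzyme. Gapdhs was at 5.13, 6.23, 144, 1404 and 1888 CPM at 18, second 18, 20, 24 and 30 hpf (slope 0.56 ± 0.10), and gapdh at 15.4, 7.06, 49.6, 227 and 411 (0.43 ± 0.07). Eno3, ldhba, pgam1a and the malate dehydrogenase gene mdh1aa also passed, with slopes from 0.26 to 0.41. No list of glucose metabolism was drawn up, so these genes are named because they passed.

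In the lysosome and protease list 5 of 21 genes tested rose and 0 fell (median slope 0.22, against -0.02 over all genes). Lgmn, a protease of the lysosome, was at 20.5, 46.5, 97.0, 383 and 695 CPM in the same library order (slope 0.36 ± 0.05, adjusted p = 0.0185). Ctsc was at 20.5, 27.8, 60.3, 284 and 567, ctsla at 41.0, 105, 162, 383 and 743, and ctsd at 61.6, 123, 215, 567 and 704, each higher at every later stage than in both 18 hpf libraries. Laptm5, a lysosomal membrane gene of blood cells, went from 0 and 6.65 at 18 hpf to 499 at 30 hpf. Summed over 29 genes the list was at 1549, 3473, 5352, 11471 and 10917.

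The lists of redox, cytokine and stress genes gave 1 rising gene each, hmox1a of 10 in the phagocyte oxidase and redox list, il1b of 6 in the chemokine and cytokine list and hspa5 of 17 in the immediate early and heat shock list. Over all genes tested 1.22% rose. The endoplasmic reticulum chaperone gene hsp90b1 was at 0, 12.5, 49.6, 70.9 and 567 CPM in the same order (slope 0.47 ± 0.07, adjusted p = 0.0250), and hspa5, pdia4 and calr3a, named because they passed, had slopes from 0.27 to 0.28. Gstp1, a glutathione transferase, was at 30.8, 29.9, 81.9, 397 and 1008 (slope 0.43 ± 0.05, adjusted p = 0.0139). Il1b, the cytokine interleukin-1 beta, was at 10.3, 29.1, 64.6, 978 and 685 (slope 0.41 ± 0.05, adjusted p = 0.0139) and was detected in 2 of 15, 16 of 90, 7 of 22, 3 of 4 and 6 of 6 cells. The macrophage amino acid transporter gene slc7a7 went from 0 and 4.57 to 469.5, the actin capping gene capgb from 0 and 6.65 to 675, and the properdin gene cfp, of the complement system, from 10.3 and 17.03 to 176 at 30 hpf. These 3 genes were higher at each later stage than in both 18 hpf libraries. Crip1, jdp2b, nr4a1, elovl1b and sdc4 were among the other rising genes.

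All 9 falling genes had lower measured levels at 24 and 30 hpf than at 20 hpf, and 7 of them were at 0 at 30 hpf. By the limit used above, a count of 0 allows up to 42.5 CPM in macrophages of 24 hpf and 29.3 at 30 hpf. At 20 hpf macf1a (2.16), ttn.2 (4.31), hapln1b (12.9) and CU929070.5 (15.1) already lay below both limits. Slc38a5b (30.2) lay below that of 24 hpf and close to that of 30 hpf. For these genes the counts cannot show a further fall after 20 hpf. The zinc finger gene blf was at 667 and 822 CPM in the 18 and second 18 hpf libraries, then 127, 14.2 and 0 at 20, 24 and 30 hpf (slope -1.24 ± 0.15, adjusted p = 0.0139). It was found in 15 of 15 and 84 of 90 macrophages of 18 hpf and in 18 of 22 at 20 hpf. The collagenase gene mmp13a.1 was at 672, 1424, 469.7, 14.2 and 29.3 (slope -0.41 ± 0.07), and id2a, an inhibitor of differentiation, at 600, 671, 450, 199 and 39.1. The muscle titin gene ttn.2 was at 66.7, 199, 4.31, 0 and 0, the matrix link protein gene hapln1b at 123, 124, 12.9, 0 and 0, and macf1a, CU929070.5, slc38a5b and krt94 had the same shape. Slopes of genes at 0 in a library depend on the prior count of the fit and are no measure of size. In each falling gene both 18 hpf libraries lay above every later one.

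**Figure D5:**
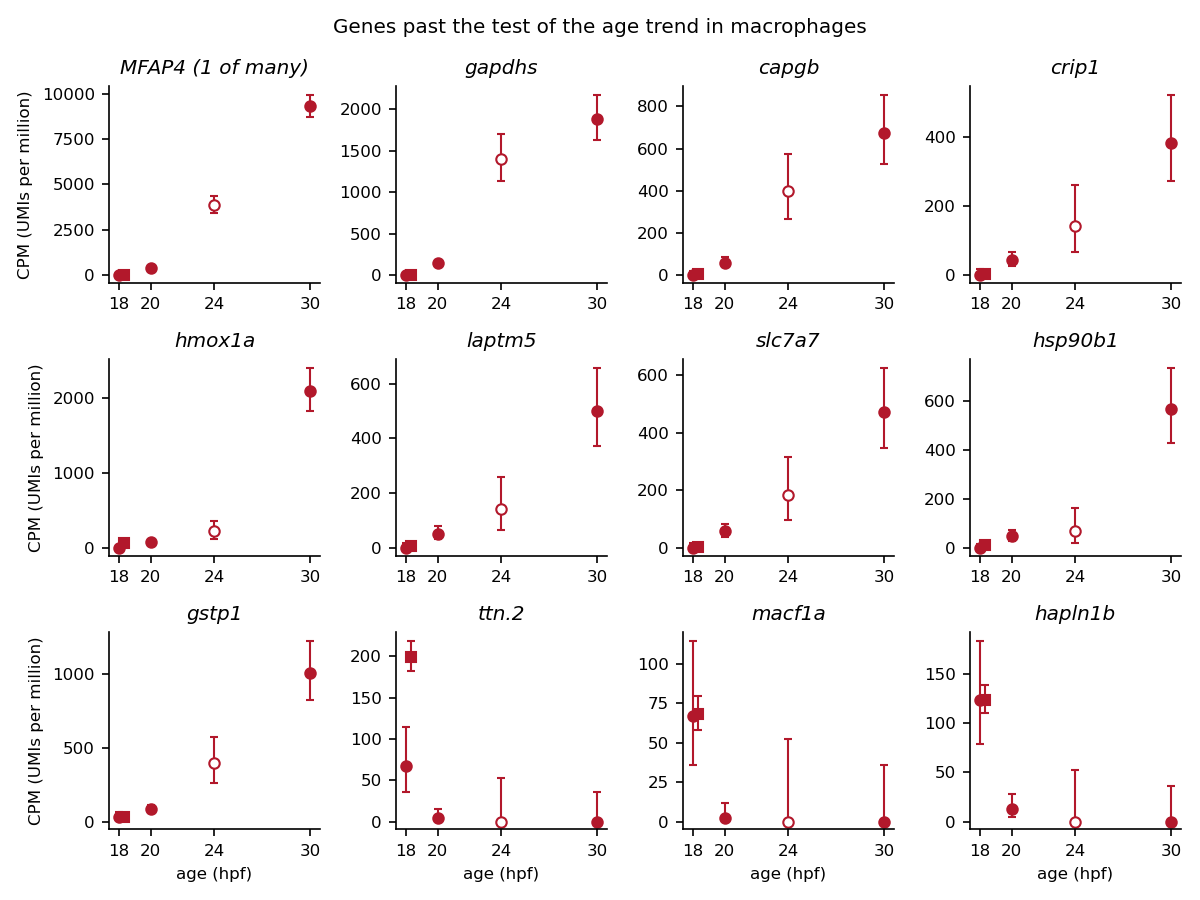
CPM in macrophages against age for the 9 rising and 3 falling genes with the steepest slopes past the test, with 95% exact Poisson intervals for counting error. Squares mark the second 18 hpf library and open circles the 24 hpf library, which the fit did not use, where MFAP4 (1 of many) was at 3885 and ttn.2 at 0.

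The other lists showed few age calls. Only 1.52% of all 3021 genes were called (1.22% rising), so such counts say little about these lists. Of 16 proliferation genes, 13 signalling genes, 9 myeloid factors and 3 engulfment genes tested, 0, 1, 0 and 0 rose, and 0 fell in each (edgeR, the fit of 551 unadjusted and 46 adjusted calls). The median slope was -0.05 for proliferation and 0.05 for myeloid factors. Cxcr3.2 was at 510 and 245 CPM at 24 and 30 hpf, irf8 at 383 and 196 and cybb at 298 and 323, within the range of the earlier libraries or near it. The 7 genes called in both tests were BX248082.1, blf, hapln1b, jdp2b, lgmn, mmp13a.1 and ttn.2. The tests share macrophage samples, so the 7 are a count only. Lgmn was higher in macrophages and rose with age, whereas jdp2b was lower in macrophages (log2 -1.18) and rose with age (slope 0.34).

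The second 18 hpf library, the largest, held macrophages with and without mfap4 at one age. Mfap4 had a UMI in 34 of its 90 macrophages (median 28512.5 UMIs a cell) and in none of the other 56 (median 26136.5). As a description with no test, havcr1 was at 235 CPM in cells with mfap4 and 36.9 in cells without, the chemokine gene cxcl8a at 338 and 36.2, il1b at 59.1 and 7.81, and acod1, the itaconate-making enzyme, at 52.1 and 5.68. Lygl1 was at 642 and 347 and mpeg1.1 at 276 and 116. Blf was at 533 and 1027, sox10 at 32.1 and 63.9, the troponin gene tnnt2a at 396 and 776 and pcna at 192 and 306. The chemokine and cytokine genes were patchy, with cxcl8a in 14 of 34 cells and il1b in 11 of 34. Of the 37 genes that rose with age 21 were higher in cells with mfap4 (45.2% of all genes tested were), and of the 9 that fell 6 were lower (54.8%). Tnnt2a was also high in the marker-low cells of that library (503 CPM, and 618 in all its macrophages) and at most 128 in either class at 18 and 20 hpf of the timeline, so this heart gene was high in both classes of 1 library.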

How the data were processed

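Red photoconverted cells of the first arch stream, dissociated from pooled Tg(sox10:nEOS)w18 embryos, were sorted and captured on the 10x platform. The deposited values are whole UMI counts per gene and cell, which the authors made with Cell Ranger against GRCz11 and left after excluding low-quality cells, and the authors joined the 6 timeline libraries into 1 table and kept the second 18 hpf library in another. Seurat 3 is also named in the processing notes. Cells of the timeline table were given to libraries by the barcode suffix, which matches the sample number in the labels. The tables held 17651 genes in 1875 cells and 18597 genes in 979 cells, and 16600 genes were in both.

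Cells needed at least 500 genes and at most 10% mitochondrial UMIs. Counts were summed per library and class where the class had at least 5 cells, filtered with filterByExpr, scaled by TMM and tested with edgeR's quasi-likelihood test and Benjamini-Hochberg adjustment at 0.05 (edgeR 4.0.16, limma 3.58.1, R 4.3.3), on 2 residual degrees of freedom in each test. The class test had the library as a block, as both classes of a library come from the same embryos, and the age test had age in hours as its slope. Levels are CPM, and intervals are 95% exact Poisson or Clopper-Pearson. Thinning drew 5000 UMIs from each cell. Doublets were called with Scrublet in scanpy 1.11.5 and kept. Alternatives were DESeq2 1.42.0, its size factors, no count filter, each library left out, other marker and cell minimums, thinned cells, other marker-low cells and no block. On simulated data the class test, on 4006 genes, recovered 92.9% of changes of log2 2, and the age test, on 3277 genes, 29.5%. In the age test this size was the change over the whole span of ages in the fit, not per hour. The simulated libraries shared a mean profile and an assumed spread, with no difference in chemistry or cell mix. These rates therefore do not show what share of real changes was found here.

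The text names the 12 rule genes, the 12 genes with the largest differences each way past the threshold (at least 10 UMIs, and in the class test the same direction in all 3 libraries), and from each of 20 lists the 4 members with most UMIs in macrophages and any member past the threshold. Members and lists were chosen with earlier results of these data known. Genes such as tfec, acod1 and cxcl8a were named after their values were seen where they fall outside these rules. Some genes that these rules would name are counted in their lists but not reported here. No genome sequence was used here.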

Additional observations from a re-analysis of the deposited data

Results flagged for a closer look

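Cells outside the class by its exclusion genes carried macrophage markers. At 20 hpf 14 cells with 3 or more markers and a leukocyte gene were left out for epcam, and in the second 18 hpf library 14 were left out for epcam or cdh5. Their marker levels stand in the report, and no cause was tested.

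In 2 genes named in the text or held in a list, the classes differed at least 2-fold with separate counting intervals in opposite directions in 2 libraries, and these differences were not tested. Smaller disagreements, as in ctsla, cxcr4b and il6r, are not listed. The linker histone gene h1fx was at 34.47 CPM in macrophages of 20 hpf against 3.05 in marker-low cells, but at 16.2 in macrophages of the second 18 hpf library against 35.02 in marker-low cells. The stress-response factor gene atf3 was at 454.9 CPM in macrophages of the second 18 hpf library against 225 in marker-low cells, but at 128.2 at 18 hpf against 279.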

How the results depend on the processing

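The share of macrophages was 3.23% at 18 hpf and 7.35% in the second 18 hpf library with at least 4 markers, and 2.43% and 7.15% in cells thinned to 5000 UMIs. At 20 hpf it was 6.98% with no condition on dlx2a, epcam and cdh5, and at 30 hpf it was 0 without doublet calls. The class test called 277 of 3695 genes with DESeq2, 1149 of 15294 with no filter on low counts and 95 of 1683 in thinned cells. It called 258 of 3369 against marker-low cells also without dlx2a, epcam and cdh5. In an alternative chosen after seeing the data it called 305 of 3075 against marker-low cells with lcp1 or coro1a. There sox10 turned to a log2 of 0.72 (edgeR adjusted p = 0.340). Without the second 18, the 18 and the 20 hpf library the class test called 337 of 3234, 684 of 6312 and 999 of 6300. Both classes of a library share embryos, so the library served as the block, and with no replicate block 78 genes were called, all of them among the 479. Of the 24 genes with the largest differences 23 were called under every alternative that tested them, slc3a2a being lost with no block, but of the 93 called genes that the text's rules name only 31 were, and 1 turned. Of 3021 genes the age test called 89 with DESeq2 (38 of the 46 among them) and 73 with DESeq2 size factors. It called 311 of 13689 with no filter and 92 of 2302 with the 24 hpf library included, which was chosen after seeing the data. Without doublet calls, or with at least 10 cells per library, it called 102 of 4607. Both of these settings drop the 30 hpf library. It called 0 of 1689 in the timeline libraries alone (181 at an unadjusted p under 0.05), and 0 to 270 (the latter of 2727) with each library left out in turn. Slopes ranged over libraries left out from -0.21 to 1.18 for hbae3, from -0.31 to 0.32 for si:ch73-335l21.4 and from -0.35 to 0.36 for tcima, each turning without the 30 hpf library, and taking the values 1.18, -0.31 and -0.35 also without doublet calls and with at least 10 cells. None of the 46 was called under every alternative. The cause of these changes was not tested where the alternative did not itself remove cells or genes. The 4 cells at 24 hpf and 6 at 30 hpf limit what the later levels can show.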
